A study of Mus musculus with 36 samples.

Results

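Brain RNA of CP2-treated Ndufs4 knockout mice was compared with that of vehicle-treated wild-type mice, in the samples whose titles carry the letter F. The knockout group (KO CP2 F) and the wild-type group (WT vehicle F) held 5 samples each, 10 of the 36 samples of the series, and were chosen by genotype, treatment and title letter alone. The mice were 37 to 45 days old and were gavaged over 3 days with vehicle or with CP2, a small molecule that blocks complex I of mitochondria. The labels give the genotypes as ndufs4-ko and WT, with no allele, strain or number of animals per sample, and the tissue as brain, while the design text names hippocampus and cortex. The other groups used beside this comparison were KO vehicle F and WT CP2 F, with 5 samples each, and, with the letter M, KO CP2 M with 5, WT vehicle M with 3 and KO vehicle M with 3 samples. KO CP2 F and WT vehicle F differ in both genotype and treatment, and this comparison asks what still differs from the normal brain in a knockout that has been treated. PolyA RNA was sequenced, and levels are given as counts-per-million (CPM).

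Complex I is the entry point of electrons from NADH into the respiratory chain, and NDUFS4 is an accessory subunit that stabilises its NADH-oxidising N-module. Mice without Ndufs4 develop an encephalopathy used as a model of Leigh syndrome, with lesions, gliosis and activated microglia in vulnerable brain regions such as the brainstem, cerebellum and olfactory bulb. Partial inhibition of complex I by small molecules has been studied as a mild stress to which cells adapt, with AMP-activated protein kinase as one of the sensors.

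Gene counts summed to between 46984686 and 66325207 per library in KO CP2 F and to between 49329989 and 61751085 in WT vehicle F. No pair of samples within a group agreed within sampling noise, so all 10 were kept as separate samples. The labels do not say that they came from separate animals, and p-values measure the spread between these samples. The share of reads that the counting placed outside genes was 7.54% ± 2.13 (SD, n = 5) in KO CP2 F, highest in L201 (10.97%), and 5.995% ± 0.740 (SD, n = 5) in WT vehicle F. The difference of 1.545 percentage points did not pass an exact two-sided permutation test (p = 0.151, adjusted p = 0.151 over 2 tests). Every title number of KO CP2 F is below every title number of WT vehicle F, so within F the part of this number cannot be told apart from that of the groups. Xist lay at 538 to 744 CPM and Ddx3y at 0 in all 10 samples, which matches the letter F. Markers of neurons of the cortex and hippocampus, astrocytes, oligodendrocytes and microglia were detected in all 10 samples.

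Ndufs4 (ENSMUSG00000021764), the targeted gene, was lower in the knockout but still counted. Its level was 37.4, 36.4, 34.8, 37.1 and 31.3 CPM in the KO CP2 F samples L201, L216, L227, L233 and L234. In the WT vehicle F samples L252, L277, L278, L295 and L296 it was 45.2, 53.5, 51.5, 58.9 and 58.0 CPM. Every knockout sample lay below every wild-type sample, and the knockout level remained above 0 in each; the counts cover the whole gene and do not isolate a deleted exon. The difference in log2 CPM was -0.59. An exact permutation test, two-sided, gave p = 0.00794, which is the smallest value possible with 5 against 5 samples (adjusted p = 0.0159 over 2 tests). In bulk tissue, fewer cells of a type and less RNA per cell cannot be told apart, here and in all results that follow.

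Of 25601 genes tested with edgeR's quasi-likelihood test, 321 passed a Benjamini-Hochberg adjusted p of 0.05 and are referred to as called, which is 1.25% of the genes tested. They were 128 genes higher in KO CP2 F (0.5%) and 193 lower (0.754%). Their changes were modest. The median absolute log2 fold change of the called genes was 0.43, and 36 of them reached 1. At an unadjusted p under 0.05 by edgeR, 1997 of the 25601 genes were higher and 1886 lower. A positive log2 fold change was found in 13505 of all tested genes and a negative one in 12086. These are the backgrounds for the list counts of this comparison given below. In 194 called genes, 67 higher and 127 lower, the 5 knockout and 5 wild-type samples did not overlap, while 2.67% of all tested genes showed no overlap in either direction. The fit takes its estimate of spread from all 36 samples, and a fit on these 10 samples alone called 28 genes. A fit with the title number as a covariate called 38. The count was 91 without L201, 167 without L216, 107 without L227, 271 without L233 and 868 without L234. It was 97 without L252, 321 without L277, 202 without L278, 120 without L295 and 93 without L296. Higher genes made up 39.9% of calls, 50% with upper-quartile library sizes, 53.7% with a stricter filter on low counts and 54.4% with DESeq2.

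The 22 alternative settings were followed for 76 of the called genes. Of these, 7 stayed called under each setting, namely Mfge8, Pex6, Ndufs4, Fn3k, Dnah5, Dok3 and Zc3h6. Genes named for a large change or a small adjusted p had to show no overlap between the 5 and the 5 samples, so for them its absence is a description and supports nothing. Mfge8 (ENSMUSG00000030605) encodes a secreted protein that bridges phosphatidylserine on dying cells or debris to integrins on phagocytes. It was at 85.9, 99.4, 104, 76.4 and 109 CPM in KO CP2 F and at 138, 152, 174, 161 and 161 CPM in WT vehicle F. All 5 knockout samples were clearly below the lowest wild-type sample, and Mfge8 had the smallest adjusted p of the comparison (log2 fold change -0.73, SE 0.09, adjusted p = 1.88e-05). Vehicle-treated knockouts were at 96.2 ± 11.4 CPM (SD, n = 5) and CP2-treated wild types at 158 ± 14.4 CPM (SD, n = 5). Mfge8 was low in both knockout groups, with a log2 difference of -0.02 (SE 0.09) between CP2-treated and vehicle-treated knockouts.

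Pex6, an ATPase that recycles the receptor for peroxisomal matrix proteins, was at 44.5, 45.4, 44.9, 46.8 and 59.9 CPM in KO CP2 F. In WT vehicle F it was at 65.4, 68.6, 69.3, 71.6 and 74.5 CPM. The groups did not overlap, with L234 closest to the wild type (log2 fold change -0.53, SE 0.07, adjusted p = 7.32e-05). Fn3k encodes fructosamine 3-kinase, which removes sugar adducts from proteins. Its level was 13.4, 15.3, 14.9, 18.7 and 16.6 CPM in KO CP2 F against 26.6, 24.9, 24.8, 26.1 and 23.7 CPM in WT vehicle F, and no knockout sample reached the wild-type range (log2 fold change -0.68, SE 0.10, adjusted p = 0.000148). Ndufs4 had a log2 fold change of -0.59 (SE 0.08, adjusted p = 0.000148) in the same fit.

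Dok3, an adaptor that restrains signalling in B cells and myeloid cells, was at 1.89, 1.60, 1.44, 1.78 and 1.92 CPM in KO CP2 F. It was at 5.37, 4.88, 3.63, 2.82 and 3.70 CPM in WT vehicle F. The knockout samples were tightly grouped below the wild-type samples (log2 fold change -1.24, SE 0.23, adjusted p = 0.00529). In the opposite direction, Zc3h6, a zinc-finger protein gene, was at 25.9, 21.1, 22.3, 21.4 and 19.2 CPM in KO CP2 F and at 12.5, 15.5, 14.1, 13.2 and 13.5 CPM in WT vehicle F. Every knockout sample exceeded every wild-type sample (log2 fold change 0.68, SE 0.13, adjusted p = 0.00719).

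**Figure D1:**
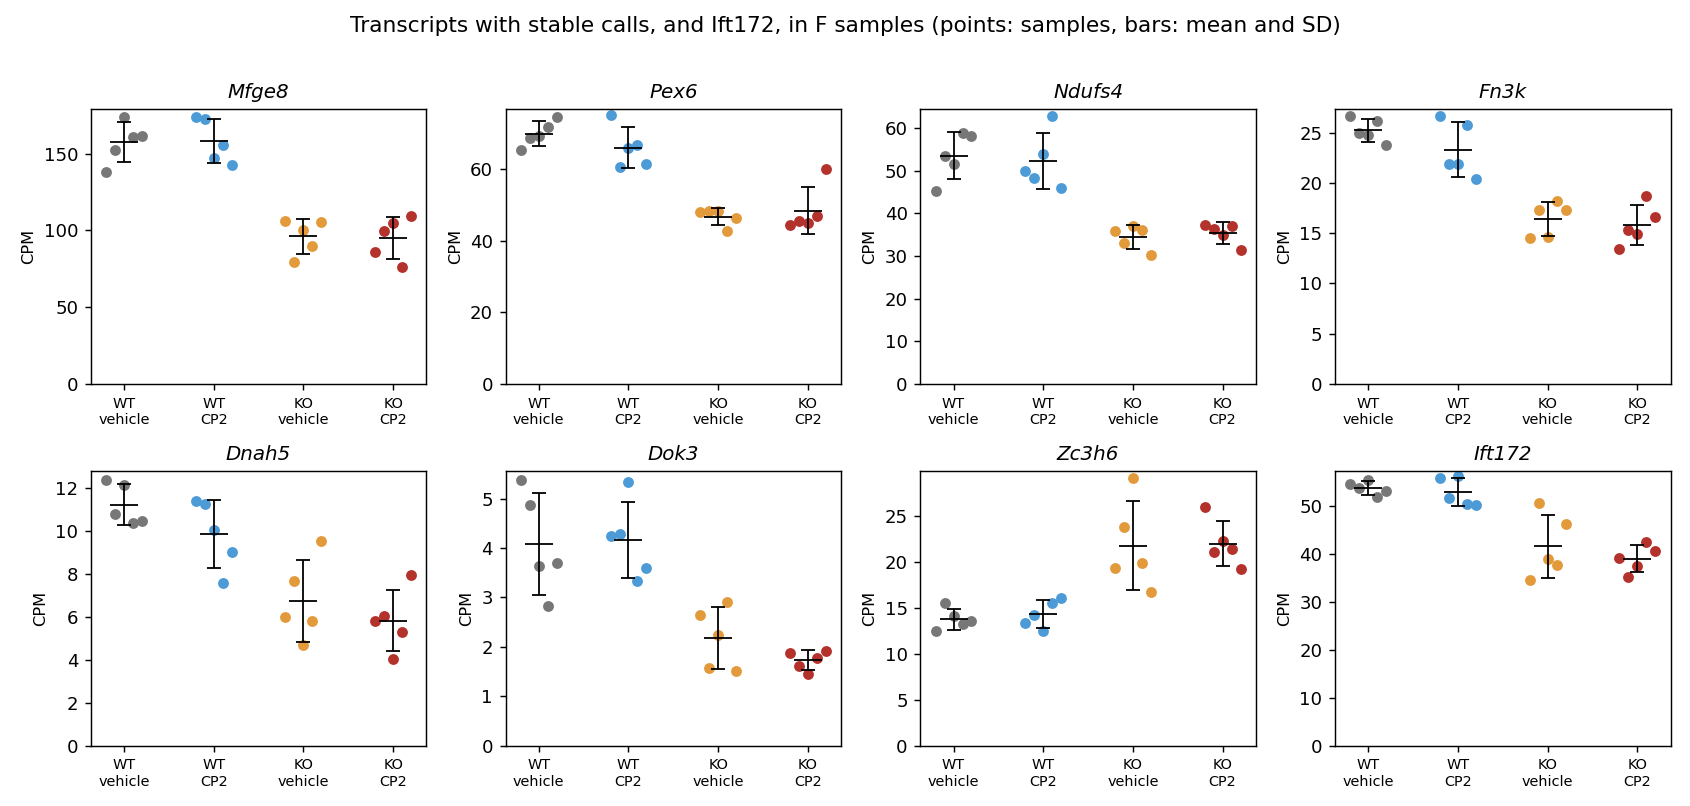
CPM of Ift172 and of the 7 genes, out of 76 followed, that were called under each alternative setting, in every sample of the 4 F groups; points are samples and bars the group mean with its SD. For each gene both knockout means lie on the same side of both wild-type means; Mfge8 has means of 95.1 CPM in KO CP2 F and 157 CPM in WT vehicle F.

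Further genes with small adjusted p values kept their calls under 20 or 21 of the 22 alternatives. Washc2, a subunit of the WASH complex that sorts cargo on endosomes, was higher (log2 fold change 0.39, adjusted p = 0.00059). Its knockout samples ran from 96.5 to 130 CPM, above the wild-type samples at 78.1 to 89.5 CPM. Mir22hg, the host transcript of a microRNA, was higher by 0.60 on the log2 scale, and Deaf1, a transcription factor, by 0.35. Ankrd28, a regulatory subunit of protein phosphatase 6, was higher by 0.39 and Ankrd39 by 0.63. Mpdz, a scaffold of multiple PDZ domains at cell junctions, was lower (log2 fold change -0.50, adjusted p = 0.000981).

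Among the calls whose groups did not overlap and that averaged 1 CPM or more, predicted models and histone genes aside, 2 genes of the endothelial surface had the largest rises. Larger rises with overlapping groups, such as those of Rbm3 and Car8, are described further on. Ecscr, a regulator of endothelial migration, was at 3.96, 3.56, 4.15, 5.003 and 4.44 CPM in KO CP2 F and at 2.24, 2.52, 1.70, 2.61 and 2.66 CPM in WT vehicle F, without overlap (log2 fold change 0.85, SE 0.18, adjusted p = 0.0157). Clec14a, a C-type lectin of the endothelium, was at 11.3 and 10.7 CPM in L201 and L233 and at 5.01 to 5.99 CPM in the other 3 knockout samples, against 2.55 to 4.91 CPM in the wild type. Its log2 fold change of 0.91 (SE 0.21, adjusted p = 0.0231) became 0.43 (adjusted p = 0.335) without L201 and L233. None of the 26 genes of the list of endothelial and mural cell genes was called (median log2 fold change 0.13, 3 higher and 1 lower at an unadjusted p under 0.05 by edgeR, against a median of 0.02 over all genes). The summed level of 5 endothelial markers was 230.3 CPM in L201 and 268.7 CPM in L233. It was 136.2 to 190.5 CPM in the other KO CP2 F samples and 153.7 to 195.6 CPM in WT vehicle F, and its part in these results was not tested. Nostrin, which binds endothelial nitric oxide synthase, was lower (log2 fold change -0.86, adjusted p = 0.0491) and kept its call in 5 of 22 alternatives.

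The next largest rises under the same conditions were in genes of varied function. Rfc3, a subunit of the clamp loader of DNA replication, had a log2 fold change of 0.79 (SE 0.16, adjusted p = 0.00884); WT vehicle F averaged 3.95 ± 0.606 CPM (SD, n = 5), and the KO CP2 F samples 6.84 ± 0.656 CPM (SD, n = 5). P2rx6, a subunit of ATP-gated channels, was higher by 0.75 (SE 0.16, adjusted p = 0.0137). Mybl1, a transcription factor, was higher by 0.79, Mir9-3hg, the host transcript of a microRNA, by 0.74, Mrnip, which interacts with the DNA break sensor MRN, by 0.71, and Fam76b by 0.67. Adjusted p values of these 4 ran up to 0.0319, and each was lost under 8 to 12 of the 22 alternatives.

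Large falls under these conditions included Cort, the gene of the neuropeptide cortistatin, described with the neuronal genes, and the cilium gene Mns1. Catsperz, a subunit gene of the sperm calcium channel that was barely expressed here, had a log2 fold change of -1.35. Cyp4f15, a fatty acid hydroxylase, was at 8.52, 8.32, 9.96, 10.2 and 7.12 CPM in KO CP2 F and at 12.7, 20.4, 16.1, 16.1 and 14.2 CPM in WT vehicle F. Its groups did not overlap (log2 fold change -0.85, SE 0.18, adjusted p = 0.0126), and its call was kept in 21 of 22 alternatives. Hyal1, a lysosomal hyaluronidase, was lower (log2 fold change -0.73, adjusted p = 0.0384), as was Zfp109, a zinc-finger protein gene (log2 fold change -0.73, adjusted p = 0.0255). P4ha1, a prolyl hydroxylase for collagen and a target of the hypoxia-inducible factor, had a log2 fold change of -0.76 (adjusted p = 0.024). It was the only called gene of 17 hypoxia targets, which had a median log2 fold change of -0.02.

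Rbm3 and Cirbp, RNA-binding proteins known for induction by mild cold, were called higher in KO CP2 F and were picked after their values were seen. Of 23 listed chaperone genes of the heat shock and endoplasmic reticulum responses, 5 were called lower. Cytosolic chaperones refold proteins and are induced by heat shock factor 1, and the chaperones of the endoplasmic reticulum assist secretory proteins and are induced by the unfolded protein response. Heat shock factor 1 binds repeats of the letters GAA in alternating orientation, such as GAANNTTC or TTCNNGAA. Both letter patterns were searched, on the strand of the gene, in the 250 bases before the start site in the RefSeq promoter table of GRCm38.p6. Both patterns read the same on the opposite strand, so this covers both strands. Either pattern was present in 12.8% of the 32851 promoters. It was present at Hsph1 and Dnaja4 among the called chaperones, and at Hspa1a, Hspa1b, Hspb1 and Dnaja1, which were not called. Dnaja4 had it in 1 of its 2 promoters and Dnaja1 in 1 of 3. The windows at the called pair and at Hspa1a, a textbook heat shock gene, are shown 5′ to 3′ on the gene's strand with the matching letters in capitals.
Hsph1 (chr5:149636347-149636384, minus strand): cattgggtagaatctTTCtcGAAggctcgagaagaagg
Dnaja4 (chr9:54699454-54699529, plus strand): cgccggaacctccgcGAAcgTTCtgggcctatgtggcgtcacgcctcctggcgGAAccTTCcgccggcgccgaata
Hspa1a (chr17:34972238-34972275, minus strand): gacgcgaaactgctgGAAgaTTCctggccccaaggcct
The pattern was not found in the windows of Chordc1, Creld2, Pdia6, Calr, Hspa4, Ahsa2 and Cirbp. It was also absent from those of Hspa5, Hsp90b1, Dnajb1, Dnajb5, Bag3, Canx, Pdia4, Sdf2l1, Xbp1 and Herpud1, which were not called. No window was searched for Hsf1, Hyou1, Rbm3, Hspa8, Hsp90aa1, Hsp90ab1 and Manf. A match describes letters and is not a measured binding site.

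Rbm3 was at 127, 126, 119, 99.7 and 73.2 CPM in KO CP2 F and at 37.0, 80.5, 51.9, 59.9 and 52.1 CPM in WT vehicle F. All KO CP2 F samples but L234 were above the whole wild-type range, which L234 entered, below L277. The log2 fold change was 0.95 (SE 0.17, adjusted p = 0.0045). Rbm3 was also high in KO vehicle F, at 123 ± 12.4 CPM (SD, n = 5), and at 56.9 ± 15.1 CPM (SD, n = 5) in WT CP2 F. Cirbp was at 109, 103, 115, 80.9 and 62.7 CPM in KO CP2 F and at 35.6, 72.1, 56.1, 56.1 and 48.5 CPM in WT vehicle F. The same pair of samples overlapped as for Rbm3, L234 being the lowest knockout and L277 the highest wild type (log2 fold change 0.81, SE 0.17, adjusted p = 0.0208).

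All 23 tested genes of the list of heat shock and endoplasmic reticulum chaperones had a negative log2 fold change, with a median of -0.41, against 0.02 over all genes. Of the 23, 5 were called lower and none higher, beside 0.754% of all genes called lower. At an unadjusted p under 0.05 by edgeR 16 of the 23 were lower, beside 1886 of all 25601 genes. The 5 were Pdia6, Hsf1, Creld2, Hsph1 and Calr. The count depended on single libraries. It was 1 without L201 or without L216, 0 without L227 or without L252, 2 without L233, L295 or L296, 5 without L278, 6 without L277 and 10 without L234. It was 1 without both L201 and L233, and 2 with the share of reads outside genes or with the title number as a covariate. It was 0 in a fit on the 10 samples alone or on the F samples alone, 3 with no filter on low counts and 8 with DESeq2. L252 was the highest wild-type sample for Hsph1, Pdia6, Creld2 and Chordc1.

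Pdia6, a disulfide isomerase of the endoplasmic reticulum, was at 62.4, 69.7, 59.5, 67.5 and 90.3 CPM in KO CP2 F and at 112, 92.4, 92.2, 97.2 and 95.7 CPM in WT vehicle F. The groups did not overlap, with L234 just under the lowest wild-type sample (log2 fold change -0.49, SE 0.11, adjusted p = 0.0212). Hsf1, the heat shock transcription factor itself, was at 24.7, 21.3, 18.5, 26.2 and 26.7 CPM in KO CP2 F and at 30.4, 31.4, 28.3, 30.8 and 28.7 CPM in WT vehicle F. It did not overlap either (log2 fold change -0.35, SE 0.08, adjusted p = 0.0235). Creld2, secreted under endoplasmic reticulum stress, was lower by a log2 fold change of -0.68 (SE 0.17, adjusted p = 0.0292), with 7.21 to 9.65 CPM in KO CP2 F below 11.5 to 16.6 CPM in WT vehicle F. Calr, a calcium-binding chaperone named to complete the 5, had a log2 fold change of -0.41 (adjusted p = 0.035).

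Hsph1, a large cytosolic chaperone that acts as an exchange factor for HSP70, was at 147, 192, 195, 202 and 280 CPM in KO CP2 F. In WT vehicle F it was at 379.1, 262.4, 250.8, 292.8 and 292.2 CPM. The ranges overlapped through L234 alone (log2 fold change -0.54, SE 0.13, adjusted p = 0.03). Without L201 and L233 the log2 fold change of Hsph1 was -0.41 (adjusted p = 0.164). KO vehicle F had 170 ± 29.1 CPM (SD, n = 5) and WT CP2 F 302 ± 47.4 CPM (SD, n = 5).

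Outside this list, 5 further called genes of protein folding were picked after their values were seen, and all were lower. Called folding genes outside the list were not counted, so this shared direction is a description and supports nothing. Chordc1, a cochaperone of HSP90, was at 38.8, 38.9, 27.4, 56.6 and 54.4 CPM in KO CP2 F and at 89.2, 65.7, 60.1, 69.0 and 62.3 CPM in WT vehicle F, without overlap (log2 fold change -0.68, SE 0.17, adjusted p = 0.0403). The HSP70 relative Hspa4 had a log2 fold change of -0.29, the HSP40 cochaperone Dnaja4 of -0.40, the HSP90 activator Ahsa2 of -0.49 and the endoplasmic reticulum chaperone Hyou1 of -0.35. Of listed chaperones that were not called, Hspa8 had a log2 fold change of -0.17 (adjusted p = 0.282) and Hsp90aa1 of -0.18 (adjusted p = 0.229). Hspa1a, at -0.40 (adjusted p = 0.307), and Hspa5, at -0.49 (adjusted p = 0.0987), had differences as large as those of some called chaperones but did not pass the threshold.

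**Figure D2:**
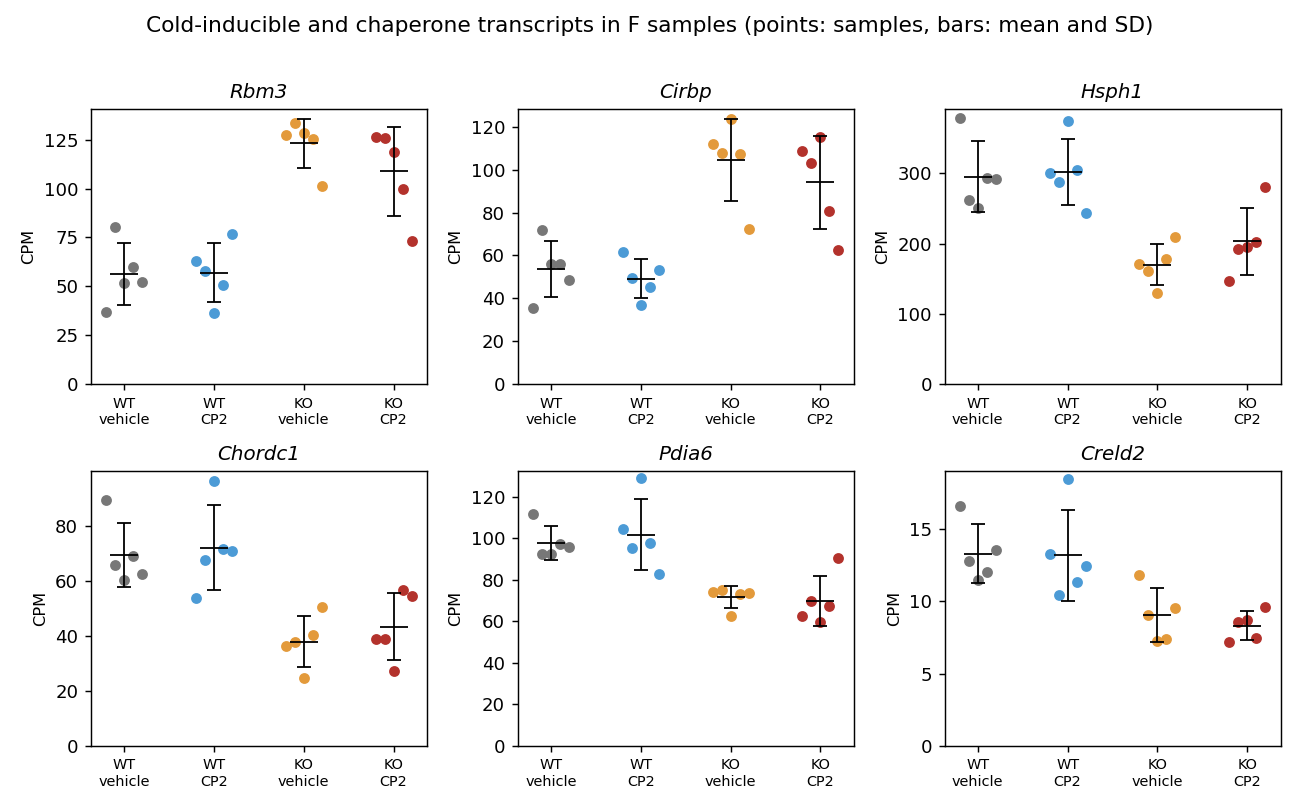
CPM of Rbm3, Cirbp, Hsph1, Chordc1, Pdia6 and Creld2 in every sample of the 4 F groups; points are samples and bars the group mean with its SD. In both knockout groups Rbm3 and Cirbp have the higher means and the 4 chaperone genes the lower means; Rbm3 means are 109 CPM in KO CP2 F and 56.2 CPM in WT vehicle F.

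Complex I genes other than Ndufs4 differed little. Of 10 N-module genes Ndufs4 was the only one called, with a median log2 fold change of -0.01, and none of 27 genes of the Q-module and membrane arm was called (median -0.05, 2 lower at an unadjusted p under 0.05 by edgeR). Among 16 tested assembly factors 15 had a negative log2 fold change (median -0.12), and Timmdc1, which helps to build the membrane arm, was called. Timmdc1 was at 11.4, 13.1, 11.9, 14.4 and 16.3 CPM in KO CP2 F and at 17.7, 15.8, 16.9, 17.8 and 20.5 CPM in WT vehicle F. Only L234 lay inside the wild-type range (log2 fold change -0.40, SE 0.10, adjusted p = 0.0383), and the call was kept in 9 of 22 alternatives. None of 38 nuclear subunit genes of complexes II to V was called by edgeR (median -0.04, 2 higher and 2 lower at an unadjusted p under 0.05). None of the 13 protein genes of mitochondrial DNA was called either (median 0.08, 3 higher and 1 lower at an unadjusted p under 0.05).

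Genes of mitochondrial maintenance were called singly. Polg, the catalytic subunit of the mitochondrial DNA polymerase, was at 39.5, 43.2, 43.3, 43.2 and 46.7 CPM in KO CP2 F and at 51.1, 47.5, 55.3, 60.8 and 52.1 CPM in WT vehicle F. The groups did not overlap (log2 fold change -0.30, SE 0.07, adjusted p = 0.0231). Prkab1, a regulatory subunit of AMP-activated protein kinase, was higher by 0.51 (SE 0.12, adjusted p = 0.027), with L234 the one knockout sample inside the wild-type range. The other 22 of 24 genes of mitochondrial biogenesis and AMPK signalling were not called. Tomm20, a receptor of the outer-membrane import pore, was higher, at 353 to 437 CPM in KO CP2 F and 316 to 347 CPM in WT vehicle F (log2 fold change 0.23, adjusted p = 0.038). It was the only one called of 19 mitochondrial chaperone and protease genes. The median of that list was -0.09, with 6 lower and 3 higher at an unadjusted p under 0.05 by edgeR. None of 78 mitochondrial ribosomal protein genes was called by edgeR, with 13 lower and 1 higher at an unadjusted p under 0.05 and a median of -0.06.

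Several further mitochondrial genes were called outside these lists and were picked after their values were seen. Rmnd1, needed for mitochondrial translation, had a log2 fold change of -0.45 (adjusted p = 0.0246), with 13.5 to 17.8 CPM in KO CP2 F and 19.3 to 23.3 CPM in WT vehicle F. Tufm, the mitochondrial elongation factor Tu, had one of -0.43, and Mrrf, the ribosome recycling factor, of -0.54. Slc25a37, the iron importer mitoferrin-1, had one of -0.40. In the other direction, Coq8a, an atypical kinase of coenzyme Q synthesis, was higher by 0.38. Genes of mitochondrial lipoate and fatty acid synthesis were also higher, Lias by 0.37 and Mecr by 0.35, as was Me3, the mitochondrial malic enzyme, by 0.46.

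Stress programmes that follow respiratory chain defects in other tissues had few calls. None of 23 tested genes of the integrated stress response was called by edgeR (median -0.03, 5 lower at an unadjusted p under 0.05), and none of 26 glycolysis and glucose transport genes (median -0.01, 2 higher and 1 lower). Of 20 antioxidant genes driven by NRF2 only Gclc, the catalytic subunit of the first enzyme of glutathione synthesis, was called. Gclc was at 68.2, 67.7, 74.7, 66.5 and 61.8 CPM in KO CP2 F and at 53.8, 58.9, 52.9, 63.5 and 58.4 CPM in WT vehicle F. L234 alone overlapped with the wild type (log2 fold change 0.24, SE 0.06, adjusted p = 0.0444).

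Microglial genes were represented by single calls. Mpeg1, a pore-forming protein of macrophages and microglia, was at 41.8, 39.05, 37.5, 40.9 and 50.7 CPM in KO CP2 F and at 30.0, 26.0, 33.1, 29.2 and 32.4 CPM in WT vehicle F. All knockout samples were above the wild-type samples (log2 fold change 0.48, SE 0.10, adjusted p = 0.0165). Cd33, an inhibitory sialic acid receptor of myeloid cells, was at 11.2 to 15.3 CPM in KO CP2 F and 7.45 to 9.999 CPM in WT vehicle F (log2 fold change 0.58, adjusted p = 0.0231). Lair1, a collagen receptor that dampens immune cells, was higher by 0.49 and Plek, a substrate of protein kinase C in blood cells, by 0.37. These 4 were picked after their values were seen, and Dok3, expressed in the same lineage, was lower. The summed level of 5 defining microglial markers was 294 to 383 CPM in KO CP2 F and 281.1 to 329.5 CPM in WT vehicle F, and its part in these results was not tested.

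The immune lists showed few calls. None of 24 genes of disease-associated microglia was called (median 0.11, 4 higher at an unadjusted p under 0.05 by edgeR), and none of 15 homeostatic microglial genes (median 0.12, 2 higher). Clec7a, a beta-glucan receptor that marks activated microglia, was at 1.26 to 1.87 CPM in KO CP2 F and at 0.228 to 0.671 CPM in 4 wild-type samples, with L278 at 1.47 CPM. Its log2 fold change of 1.33 (SE 0.39) had an adjusted p of 0.0765. Of 36 interferon-stimulated genes 31 had a positive log2 fold change (median 0.39, 8 higher at an unadjusted p under 0.05). Only Ifit2, which restrains translation of viral RNA, was called, at 14.4 to 17.7 CPM in KO CP2 F and 10.8 to 13.04 CPM in WT vehicle F (log2 fold change 0.44, adjusted p = 0.0403). None of 20 reactive astrocyte genes was called by edgeR, with 7 higher at an unadjusted p under 0.05 and a median of 0.29. None of 15 complement, 16 antigen presentation and 17 tested cytokine and chemokine genes was called either (at an unadjusted p under 0.05, 1, 2 and 2 were higher and 0, 0 and 1 lower).

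Cort, Homer2, Shank1, Mapt and Sez6l2, 5 genes expressed in neurons, were among the 193 genes called lower, and Homer2 was picked after its values were seen. Cort, made by a class of cortical and hippocampal interneurons, was at 1.24, 3.79, 4.15, 1.33 and 1.08 CPM in KO CP2 F and at 6.29, 6.89, 4.33, 5.70 and 6.31 CPM in WT vehicle F. No samples overlapped, though L227 and L278 nearly met (log2 fold change -1.35, SE 0.34, adjusted p = 0.0366). Cort was the only one called of 22 interneuron genes (median -0.05), and without L201 and L233 its log2 fold change was -0.97 (adjusted p = 0.213). Homer2, a scaffold of the postsynaptic density, was at 50.8, 69.3, 62.1, 59.3 and 57.5 CPM in KO CP2 F and at 93.4, 79.3, 94.0, 79.2 and 90.2 CPM in WT vehicle F. The groups were well apart (log2 fold change -0.54, SE 0.09, adjusted p = 0.00192), and the call was kept in 21 of 22 alternatives.

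Shank1, another scaffold of excitatory synapses, was at 377, 397, 406, 461 and 404 CPM in KO CP2 F and at 541, 490, 589, 560 and 606 CPM in WT vehicle F, again without overlap (log2 fold change -0.45, SE 0.10, adjusted p = 0.0212). Mapt, the gene of the microtubule protein tau, had a smaller difference (log2 fold change -0.21, adjusted p = 0.04), as did Sez6l2, a neuronal membrane protein (log2 fold change -0.25, adjusted p = 0.0212). None of 34 glutamate and GABA-A receptor genes was called (median -0.01, 3 lower at an unadjusted p under 0.05 by edgeR), nor any of 20 immediate early genes (median -0.27, 1 lower). Lists for hippocampal CA, dentate gyrus, cortical layers and striatum held no gene called by edgeR, with 3, 0, 1 and 1 higher and 0, 0, 3 and 0 lower at an unadjusted p under 0.05. The summed level of 4 CA markers had a mean of 283.4 CPM with an SD of 48.55 over the 5 KO CP2 F samples and of 234.7 CPM with an SD of 14.34 over the 5 WT vehicle F samples. A fit that took a score of hippocampal CA genes as covariate called 280 genes.

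In the oligodendrocyte lineage, Opalin, a membrane protein of mature oligodendrocytes, was at 52.8, 63.0, 70.0, 73.9 and 50.1 CPM in KO CP2 F and at 45.5, 34.1, 32.2, 42.6 and 40.4 CPM in WT vehicle F. The groups did not overlap (log2 fold change 0.67, SE 0.17, adjusted p = 0.0423). KO vehicle F had 39.5 ± 4.01 CPM (SD, n = 5) of Opalin and WT CP2 F 38.2 ± 8.99 CPM (SD, n = 5), so the high samples were those of KO CP2 F. The direct contrast with KO vehicle F did not pass the threshold (log2 fold change 0.65, adjusted p = 0.116). Tspan2, a tetraspanin of myelinating cells, was higher by 0.53 (adjusted p = 0.0478). Opalin was the only one called of 20 oligodendrocyte and myelin genes, whose median was 0.09. The summed level of 5 myelin markers was 9662 to 13070 CPM in KO CP2 F and 8352 to 12280 CPM in WT vehicle F.

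Dnah5, Ift172, Mns1 and Mkks, 4 genes with roles in cilia, were called lower, and no list of cilium genes was tested. Dnah5, a heavy chain of the outer dynein arm that moves ependymal cilia, was at 5.80, 6.07, 4.04, 5.28 and 7.97 CPM in KO CP2 F. In WT vehicle F it was at 12.4, 10.8, 12.1, 10.4 and 10.5 CPM. The highest knockout sample, L234, stayed below the lowest wild-type sample (log2 fold change -0.94, SE 0.15, adjusted p = 0.000981). Ift172, which carries cargo along the ciliary axoneme, was at 39.2, 35.1, 37.5, 42.5 and 40.7 CPM in KO CP2 F and at 54.7, 53.9, 55.5, 51.8 and 53.2 CPM in WT vehicle F. The gap between the groups was wide against the spread within them (log2 fold change -0.46, SE 0.08, adjusted p = 0.000981).

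Mns1, an axonemal protein, was lower (log2 fold change -1.02, adjusted p = 0.0293), as was Mkks, a chaperonin-like protein that assembles the BBSome (log2 fold change -0.72, adjusted p = 0.0223). Ift172 and Mkks were picked after their values were seen. None of 10 ependymal genes was called by edgeR, but all 10 had a negative log2 fold change (median -0.48, 1 lower at an unadjusted p under 0.05). In WT CP2 F against the same WT vehicle F samples all 10 were negative too, with none called by edgeR (median -0.57, 3 lower at an unadjusted p under 0.05). All 15 choroid plexus genes were negative as well, with a median of -0.49 and none called (2 lower at an unadjusted p under 0.05), while WT CP2 F had 7 negative and a median of 0.06. The summed level of 4 choroid plexus markers was 3383 CPM in L201 and 602 to 748 CPM in the other 4 knockout samples, against 886 to 2327 CPM in WT vehicle F, and its part in the results for these genes was not tested.

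The defining markers of red cells had a summed level of 36.1 to 137 CPM (mean 81.6 CPM) in KO CP2 F. In WT vehicle F it was 83.3 to 377 CPM (mean 200.9 CPM). The red cell list of 7 genes summed to 289.7 to 389.9 CPM (mean 337.7 CPM) in KO CP2 F. Its sum was 282.5 to 657.5 CPM (mean 437.7 CPM) in WT vehicle F. None of the 7 genes was called (median -1.27, 5 lower at an unadjusted p under 0.05 by edgeR), and 2 had a positive log2 fold change. Histone cluster genes also had a low median, -0.50 over 35 tested genes, with 12 lower and 3 higher at an unadjusted p under 0.05 by edgeR. The 1 called gene, Hist3h2ba, was higher (log2 fold change 0.45, adjusted p = 0.0276). The cytosolic ribosomal protein genes had a median of -0.04 over 83 tested genes and 0 called by edgeR (3 higher and 2 lower at an unadjusted p under 0.05).

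**Figure D3:**
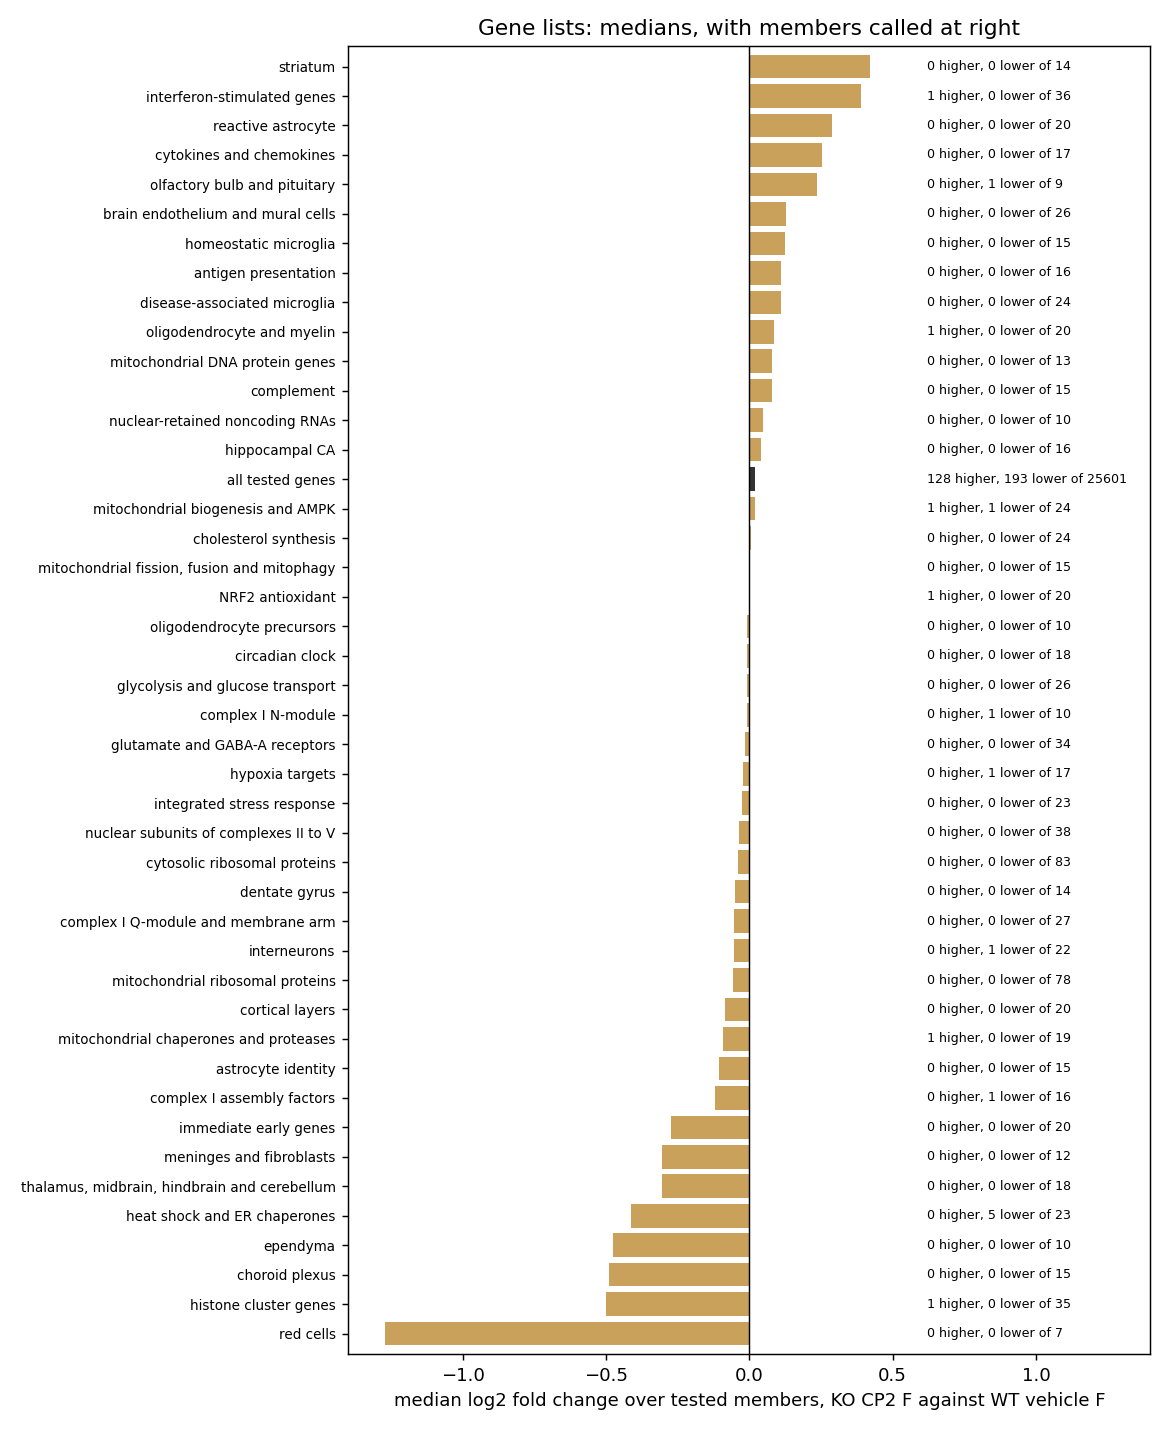
Median log2 fold change, KO CP2 F against WT vehicle F, of the tested genes of each of 43 lists and of all tested genes; figures at the right give genes called higher and lower. Heat shock and ER chaperones show 5 called lower at a median of -0.41, and most other lists none called.

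Some calls rested on libraries that stood apart. Pcp2, made by Purkinje cells of the cerebellum, was at 37.7 CPM in L201 and 27.6 CPM in L233, and at 0 to 0.165 CPM in the other 3 KO CP2 F samples. In WT vehicle F it was at 3.02 CPM in L278 and 0.104 to 0.326 CPM in the rest. Gabra6, a receptor subunit of cerebellar granule cells, was at 52.2 CPM in L201, 7.62 CPM in L233 and 2.96 CPM in L278, and Cbln3, a secreted protein of the same cells, at 178, 16.3 and 9.04 CPM. Transcripts of these cerebellar markers were thus counted in 2 knockout libraries and, at a lower level, in 1 wild-type library, while the design text names hippocampus and cortex. The 4 defining markers of cerebellum and hindbrain summed to 268 CPM in L201, 51.5 CPM in L233 and 17.9 CPM in L278, and to at most 1.09 CPM in each of the other 7 libraries.

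The 4 called genes Car8, Hes3, Arhgef33 and Ptpn22 were highest in L201. Car8 and Arhgef33 lay above all wild-type samples in 2 knockout libraries and Hes3 in 3. Ptpn22 lay above them in 4 knockout libraries and below them in 1. Car8, known for its level in Purkinje cells, was at 159, 15.8, 13.9, 63.5 and 18.6 CPM in KO CP2 F and at 15.5, 9.65, 22.6, 16 and 13.9 CPM in WT vehicle F. Apart from L201 and L233 the groups overlapped fully, and the log2 fold change of Car8 went from 1.80 (adjusted p = 0.0341) to 0.06 (adjusted p = 0.94) without that pair. Hes3, a transcriptional repressor, went from 2.68 to 1.24, and Arhgef33, a guanine nucleotide exchange factor, from 2.64 to 0.55. Ptpn22, a phosphatase of immune cells, went from 2.10 to 0.84, and none of the 4 was called without them. Leaving out L201 and L233, 124 genes were called, of which 83 were among the 321. Prl, the pituitary hormone prolactin, was called lower (log2 fold change -6.49, adjusted p = 0.0455) with 15.3 CPM in L295 alone among the wild-type samples and at most 2.80 CPM in each other sample. Gh, growth hormone, was at 21.3 CPM in L295.

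**Figure D4:**
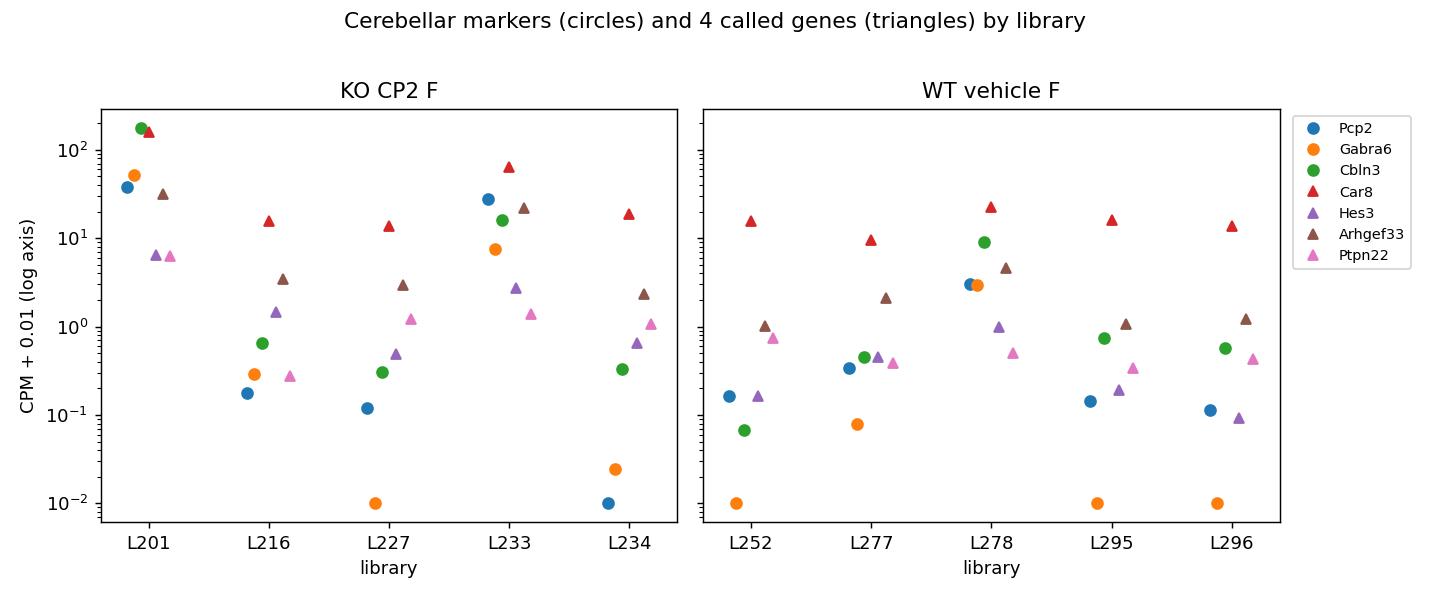
CPM, on a log axis after adding 0.01, of 3 cerebellar markers (circles) and 4 called genes (triangles) in each of the 10 libraries. The markers stand out in L201, L233 and L278, where Cbln3 reaches 178, 16.3 and 9.04 CPM, and the 4 called genes are highest in L201.

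The same genotype and treatment contrast in samples with the letter M, which shares no sample with F, called 618 genes (2.41%). One KO CP2 M library, L266, had 47.3 CPM of Xist, against at most 0.833 CPM in the other KO CP2 M and WT vehicle M libraries, and 375 genes were called without it. Of the 321 F calls, 270 (84.1%) went the same way in M, against 54.9% of all tested genes. The share was 82% for the higher and 85.5% for the lower genes. Called in both were 36 genes, all with the same sign, which is 11.2% of the F list and 5.83% of the M list. They include Rbm3, Hsf1, Dok3, Ift172, Pex6, Polg, Rmnd1, Coq8a, Slc25a37, Tomm20, Mpeg1, Lair1, Plek, Ifit2, Clec14a and Cort. The targeted gene Ndufs4 was not among them, with a log2 fold change of -0.32 in M (adjusted p = 0.0617 by edgeR) beside -0.59 in F. Rbm3 had a log2 fold change of 0.93 in M (adjusted p = 0.00918), close to its 0.95 in F, and Dok3 had -1.24 in both. Mpeg1 had 0.90 in M (adjusted p = 9.42e-05) beside 0.48 in F, and the difference of the 2 did not pass the test (adjusted p = 0.268).

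One gene differed between F and M in its response, out of 25601 (0.00391%), with 2990 at an unadjusted p under 0.05 by edgeR and 166 called by DESeq2. Lhx2, a LIM-homeodomain transcription factor of forebrain development, was at 50.0, 51.0, 49.5, 45.6 and 56.8 CPM in KO CP2 F and at 60.0, 69.2, 78.7, 72.5 and 69.8 CPM in WT vehicle F. All F knockout samples were below all F wild-type samples (log2 fold change -0.47, SE 0.09, adjusted p = 0.00501). In M the order was the opposite, with KO CP2 M at 62.1 ± 4.64 CPM (SD, n = 5) and WT vehicle M at 50.6 ± 3.32 CPM (SD, n = 3) (log2 fold change 0.29, adjusted p = 0.127). The difference of -0.76 (SE 0.14, adjusted p = 0.0417) was not called when any one of L201, L216, L227, L233, L278, L295 and L296 in F, or of 5 of the 8 libraries in M, was left out. With RLE or upper-quartile library sizes 0 genes were called for this difference. Dnah5, not called here, had -0.94 in F, 0.21 in M and a difference of -1.15 (adjusted p = 0.0556).

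The lists were also counted in M. The 83 cytosolic ribosomal protein genes had 56 called higher in M (median 0.37), beside 1.14% of all genes, and 0 called in F (median -0.04). The share of reads outside genes was 10.22% ± 1.22 (SD, n = 3) in WT vehicle M and 7.33% ± 1.404 (SD, n = 5) in KO CP2 M, and with it as a covariate 224 genes instead of 618 were called in M. Its part in the ribosomal list was not tested. Protein genes of mitochondrial DNA had 6 of 13 called higher in M (median 0.49), and disease-associated microglial genes 5 of 24 (median 0.56). Both counts stand beside the same 1.14% of all genes. Ependymal genes had a median of 0.60 in M and of -0.48 in F. The 23 chaperone genes had 1 called lower in M (median -0.11), beside 1.28% of all genes, and 5 in F (median -0.41). In M 17 of the 23 had a negative log2 fold change and 6 a positive one. Nuclear-retained noncoding RNAs had 5 of 10 called lower in M (median -0.69), beside 1.28% of all genes, and 0 called in F (median 0.05). No gene of these lists was called by edgeR in the F minus M difference. At an unadjusted p under 0.05, F was below M in this difference for 75 of 83 ribosomal protein genes, 10 of 13 protein genes of mitochondrial DNA, 10 of 24 disease-associated microglial genes and 6 of 10 ependymal genes. The same held for 3 of 23 chaperone genes and for 1342 of all 25601 genes. F was above M for 8 of 10 nuclear-retained noncoding RNAs and below it for 1, and above it for 1648 of all 25601 genes.

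**Figure D5:**
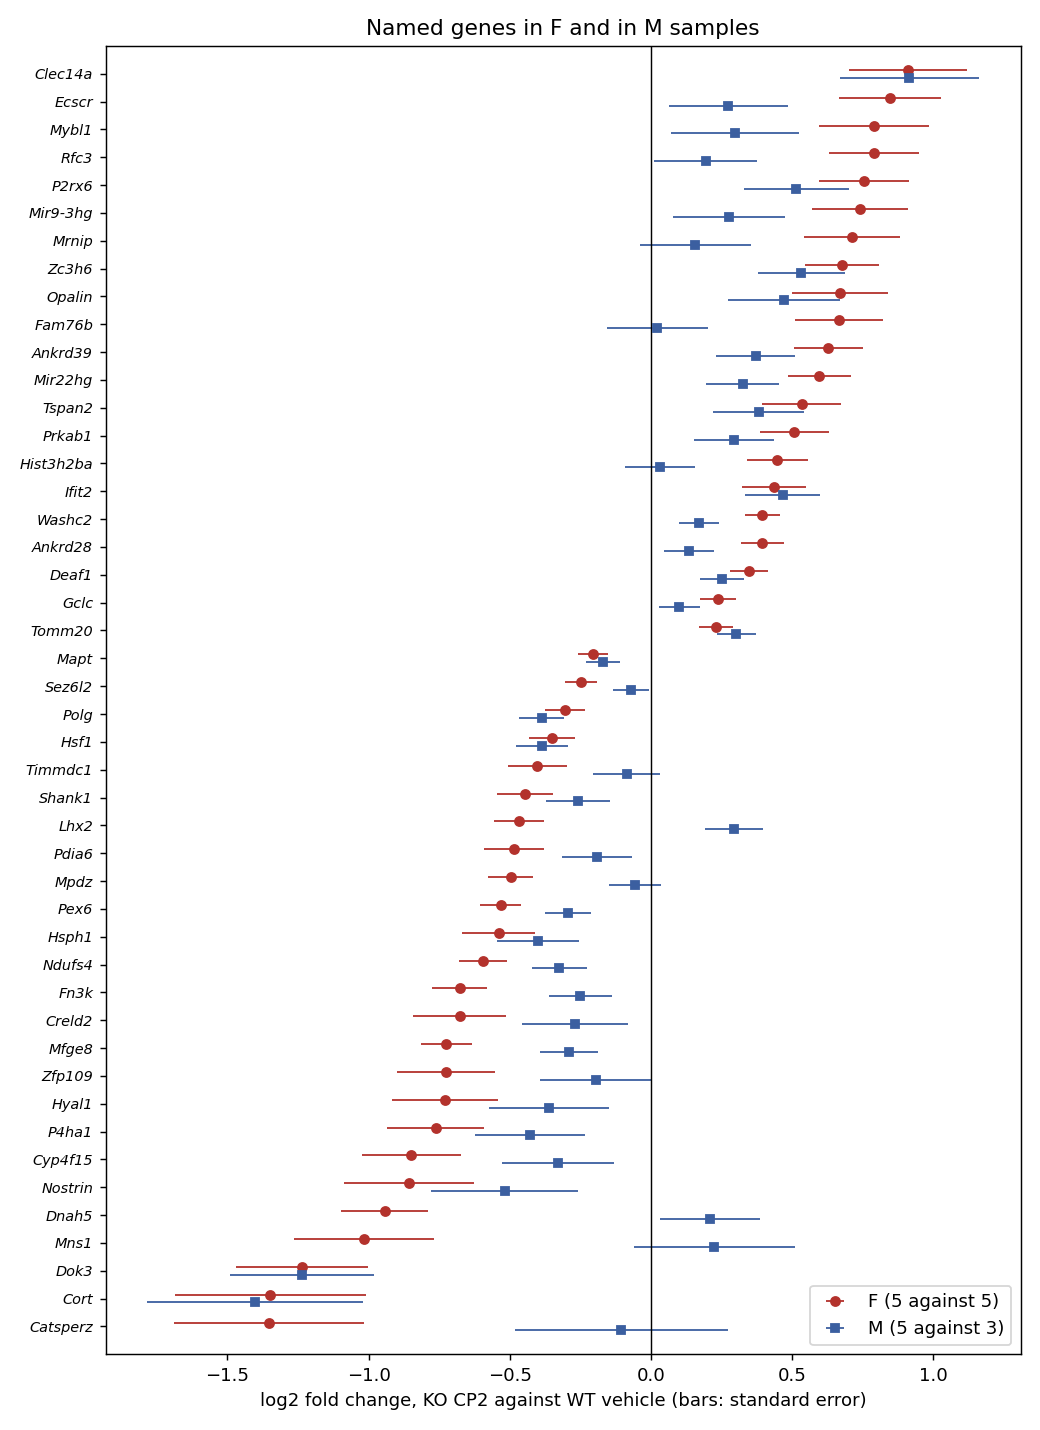
Log2 fold change of KO CP2 against WT vehicle on the horizontal axis, with SE bars, in F (circles) and in M (squares), with a row for each gene named by rule other than Prl. Most genes have the same sign in both; Lhx2 (-0.47 in F, 0.29 in M), Dnah5 (-0.94 and 0.21) and Mns1 (-1.02 and 0.22) have opposite signs.

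Side by side with the other F contrasts, which share samples with this one, untreated knockouts differed from WT vehicle F in 1270 genes (4.96%), and WT CP2 F from WT vehicle F in 0 (0%, with 679 at an unadjusted p under 0.05 by edgeR). KO CP2 F differed from KO vehicle F in 22 genes (0.0859%). A lower number of calls in one contrast does not show a smaller difference, and no test compares the counts. The log2 fold changes against WT vehicle F, first in treated and then in untreated knockouts, stood as follows for genes described above. Mfge8 had -0.73 and -0.71, Pex6 -0.53 and -0.58, Fn3k -0.68 and -0.62, Dnah5 -0.94 and -0.73, Zc3h6 0.68 and 0.66, and Rbm3 0.95 and 1.13. None of these 6 was called between KO CP2 F and KO vehicle F, where the log2 differences ran from -0.21 for Dnah5 to 0.05 for Pex6.

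The chaperone list had 8 of 23 genes called lower in KO vehicle F against WT vehicle F (median -0.32), beside 2.94% of all genes. It had 5 in KO CP2 F (median -0.41), beside 0.754% of all genes. Against KO vehicle F it had 0 called by edgeR in KO CP2 F (2 lower at an unadjusted p under 0.05) and a median of -0.01. Neurod6, a transcription factor of pyramidal neurons, was at 56.7, 65.2, 47.1, 98.7 and 55.5 CPM in KO CP2 F, while KO vehicle F averaged 33.0 ± 9.39 CPM (SD, n = 5) and WT vehicle F averaged 56.3 ± 16 CPM (SD, n = 5). All KO CP2 F samples were above the KO vehicle F mean, and Neurod6 was called between them (log2 fold change 0.97, adjusted p = 0.0296). Against WT vehicle F it was not called (log2 fold change 0.20, adjusted p = 0.649). Of 16 CA genes 4 were called lower in KO vehicle F against WT vehicle F, beside 2.94% of all genes. In KO CP2 F 0 were called lower (3 higher at an unadjusted p under 0.05 by edgeR).

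Immediate early genes had 4 of 20 called higher in KO vehicle F (median 0.90), beside 2.02% of all genes, and 0 in KO CP2 F (median -0.27). Between KO CP2 F and KO vehicle F none of the 20 was called by edgeR (median -0.91, 9 lower at an unadjusted p under 0.05). The summed level of the list was 5867 CPM in 1 KO vehicle F sample and 558 to 1070 CPM in the other 4. Fos, an activity-induced transcription factor, was at 644 CPM in that sample and at 8.93 to 21.9 CPM in the other 4. In KO CP2 F it was at 12.1 to 29.5 CPM and in WT vehicle F at 10.7 to 39.6 CPM, with no sample of either group near that level.

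A set of genes chosen by a contrast between M groups gave a further view. The fit behind it held all 36 samples, so F samples took part in its filter and its estimate of spread. The 132 genes called between KO vehicle M and WT vehicle M (0.516% of those tested) changed there by a median of 0.57 on the log2 scale. They had the same direction in 127 cases (96.2%) in KO CP2 F against WT vehicle F, against 63.9% of all tested genes. Their median log2 fold change in that direction was 0.23 in KO CP2 F. In KO vehicle F against WT vehicle F 113 had that direction (median 0.25), and in WT CP2 F against WT vehicle F 97 did (median 0.04). The share of all tested genes with that direction was not counted for KO vehicle F and WT CP2 F, so 113 and 97 have no background here. These 3 F contrasts share the WT vehicle F samples, and no test was made between them.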

How the data were processed

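PolyA RNA of 36 brain samples in 8 groups was sequenced. The deposited table holds raw counts per gene, which the authors made with STAR and HTSeq on GRCm39, per the submitters' processing notes; versions, annotation release and strand setting are not given in the sources used here, so overlapping and antisense genes are uncertain. Of 56985 rows 5 summary rows were left out, and symbols matched 52073 of 56980 genes (91.4%, holding 97.2% of counts). All 36 samples were fitted in R 4.3.3 with edgeR 4.0.16 (TMM, filterByExpr on the 8 groups, robust quasi-likelihood fit, Benjamini-Hochberg adjustment over 25601 genes), after a test on simulated data. CPM uses TMM library sizes, and log2 CPM for single values a prior count of 2. Samples were grouped by genotype, treatment and title letter. DESeq2 1.42.0, other library sizes, filters, covariates, fewer groups in the fit and each library left out were tried as alternatives; leaving out L201 and L233 together was chosen after seeing the data. Named genes were Ndufs4, up to 10 per direction with the largest fold change and 6 with the smallest adjusted p (mean CPM of at least 1, no overlap, no predicted model or histone), up to 4 called per list, the 5 most abundant called genes and those called between F and M; all other genes were picked after their values were seen. The comparison, rules and lists were chosen with earlier results of these data known. RefSeq promoters of GRCm38.p6 gave the sequences and their coordinates, which are in that build; other coordinates are not given, since the counts use GRCm39.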

Additional observations from a re-analysis of the deposited data

Results flagged for a closer look

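Among 198 sets of 5 samples (the described genes and summed marker levels in KO CP2 F and WT vehicle F), 28 held a sample whose gap to its nearest neighbour exceeded 0.71 of the whole range. Chance gives about 1 in 20 such sets, and the sets share libraries. L201 was far above the rest of KO CP2 F for Gabra6 (52.2 CPM), Cbln3 (178 CPM) and Ptpn22 (6.22 CPM), for the summed cerebellum and hindbrain markers (268 CPM) and for the summed choroid plexus markers (3383 CPM). L278 was far above the rest of WT vehicle F for Pcp2 (3.02 CPM), Gabra6 (2.96 CPM), Cbln3 (9.04 CPM) and the summed cerebellum and hindbrain markers (17.9 CPM). L227 stood out with 256 CPM of summed striatal markers.

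In WT vehicle F, L252 was far above the others for Hspa5 (364 CPM), Pdia6 (112 CPM), Hyou1 (120 CPM), P4ha1 (70.2 CPM) and Arc (246.5 CPM), and far below them for Mir9-3hg (17.2 CPM). In KO CP2 F, L234 was far above the others for Hspa5 (231 CPM), Pex6 (59.9 CPM), Mpdz (65.7 CPM) and Tufm (46.8 CPM), and far below them for Deaf1 (52.9 CPM). For most of these genes L234 was the knockout sample nearest to the wild type.

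L295 was far above the other wild-type samples for Prl (15.3 CPM) and Gh (21.3 CPM) and far below them for Fam76b (11.9 CPM). L216 held the highest Prl of KO CP2 F (0.182 CPM) and the lowest Lair1 (9.82 CPM). Catsperz was highest in L233 among KO CP2 F (1.65 CPM) and in L277 among WT vehicle F (2.44 CPM). Lhx2 differed between F and M by a test of the difference itself, by -0.76 on the log2 scale.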

How the results depend on the processing

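The 321 calls became 741 with DESeq2, 28 in a fit of the 10 samples alone, 51 in a fit of the F samples alone, 180 with a covariate for reads placed outside genes, 38 with the title number, 124 without L201 and L233, and 91 to 868 without each library. The 618 calls in M became 1092 with DESeq2, 964 with the groups compared alone, 1329 with M samples alone, 224 with the outside share and 413 with no filter, and 52 (without L303) to 744 without each library. The single F minus M call became 166 with DESeq2, 14 with no filter, 4 with a CPM filter, 17 with the CA score, 0 with RLE, upper-quartile, the outside share, the title number or without L201 and L233, and 0 to 111 without each library. The other settings moved these counts by less than 1.5 times. The cause of these changes was not tested. Some fits held fewer samples, and with fewer groups in the fit the calls fell in F and rose in M. Of 76 called genes followed, all kept their sign under the 22 alternatives, 7 kept their call under each and 69 lost it at least once, 63 of them with the title number and 60 with the 10 samples alone. The Ndufs4 difference in log2 CPM ran from -0.648 to -0.547 without each library, and that of the outside share from 0.689 to 1.974 percentage points. How far counting depth and spread between samples each limited the tests was not measured. No paired analysis was possible because the groups share no replicate number.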

Other observations

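The 10 tested protein-coding genes next to Ndufs4 on its chromosome were taken, 5 on each side in the order of the reference annotation. They had adjusted p values of 0.0914 (Arl15) to 0.969 (Snx18) in KO CP2 F against WT vehicle F by edgeR. Arl15 had a log2 fold change of 0.30 in F and of 0.46 (adjusted p = 0.016) in M.

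Mettl3, the catalytic subunit of the RNA adenosine methyltransferase, was at 7.21, 8.80, 8.07, 10.5 and 11.3 CPM in KO CP2 F and at 15.2, 13.9, 14.1, 12.7 and 13.3 CPM in WT vehicle F. The groups did not overlap (log2 fold change -0.59, SE 0.13, adjusted p = 0.02), and KO vehicle F was at 9.82 ± 1.91 CPM (SD, n = 5). Srsf7, a splicing factor, was lower in F (log2 fold change -0.28, adjusted p = 0.0341) and in M (log2 fold change -0.34, adjusted p = 0.0136). Vegfb, a growth factor of the vascular endothelial family, was at 55.2 to 64.5 CPM in KO CP2 F and 72.4 to 77.9 CPM in WT vehicle F (log2 fold change -0.32, adjusted p = 0.00945), and had -0.01 in M (adjusted p = 0.986). These 3 genes were picked after their values were seen.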
